A study of Mus musculus with 17 samples.

Results

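The regions described here carried H3K27me3 in wild-type CD8 and wild-type CD4 thymocytes and had no H3K27me3 call in CD8 thymocytes lacking the transcription factors Tcf1 and Lef1. H3K27me3 is trimethylation of lysine 27 of histone H3, written by the Polycomb complex PRC2 (catalytic subunits Ezh1 and Ezh2) and found over silenced developmental genes and over genes of other lineages. Islands, the enriched intervals in each deposited list, were joined across the 3 thymic H3K27me3 libraries wherever they shared at least 1 bp, which gave 60577 regions. Of these, 2202 regions (3.64%) held islands of both wild types and none of the deficient cells, and they are called wild-type-only regions. They were chosen by their H3K27me3 island calls in these 3 libraries, so their H3K27me3 values are a description and carry no test.

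Using ChIP-seq, which sequences the DNA bound to an immunoprecipitated protein, the study mapped H3K4me3, H3K27ac, H3K9ac and H3K27me3 in mature thymocytes of the mouse, in 3 groups with 1 library per mark and group. WT CD8 cells came from control mice and were sorted as CD8+, TCRbeta high, CD69- and CD24-. DKO CD8 cells, of genotype Tcf1-/-Lef1-/-, had the same sort, with deletion by CD4-Cre, a transgene that acts in thymocytes once the Cd4 promoter fires. WT CD4 cells are wild-type CD4 T cells by title and source name, although their phenotype label also names CD8. A further list gives Tcf1 binding in splenic wild-type CD8 T cells (TCRbeta high, CD8+), with splenic Tcf1-/- CD8 cells as its control. Ages and the number of pooled animals are not stated in the sources used here. Because each group had 1 library per mark, differences between groups have no replicate check and no p-values are given. Intervals (exact Clopper-Pearson, 95%) cover counting error only.

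Acetylation and methylation of lysine 27 exclude each other on the same histone tail. H3K4me3 is typical of promoters, while the acetyl marks H3K27ac and H3K9ac are found at promoters and enhancers in use. A promoter that carries H3K4me3 together with H3K27me3 is called bivalent. Tcf1 and Lef1 are related HMG-box proteins that thymocytes need for the choice and upkeep of T cell lineages. Positions are in the mm9 build. Genes and base sequences at these positions were not analysed here, because the gene and promoter tables at hand are of another build, and neither the deletion nor the cell types could be checked on marker genes.

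H3K27me3 islands held 2569785 reads over 121 Mb for WT CD8, 3070897 over 96.1 Mb for DKO CD8 and 4025243 over 142 Mb for WT CD4. The WT CD8 lists stood apart in how H3K27me3 and H3K27ac coincided: 55.4% of regions with a WT CD8 H3K27me3 island also had a WT CD8 H3K27ac island, against 18.4% for the same pair of marks in DKO CD8 and 11.3% in WT CD4. Results on other marks are therefore also given for the 1418 wild-type-only regions without a WT CD8 H3K27ac island.

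Wild-type-only regions were narrower and held fewer reads than the regions of all 3 groups, but were wider than the median merged region. Their median width was 4200 bp (quartiles 3000 and 5800 bp, range 200 to 26600 bp), and together they covered 10.5 Mb. They held 4.97% of the WT CD8 and 3.69% of the WT CD4 reads in H3K27me3 islands. Regions called in all 3 groups, 7266 in number, had a median width of 8600 bp, and all merged regions one of 2600 bp. The regions of all 3 groups held 34.6% and 64.8% of the WT CD8 and WT CD4 island reads. The domains that carry much of the wild-type H3K27me3 signal therefore lay outside the wild-type-only set.

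Reads per region lay between 15 and 980 in WT CD8 (median 42, quartiles 33 and 61) and between 15 and 451 in WT CD4 (median 55, quartiles 38 and 82). Median reads of the regions of all 3 groups were 72 (WT CD8), 229 (WT CD4) and 191 (DKO CD8), and those of all merged regions with an island of the library 50, 55 and 53. In the lower of the 2 wild-type libraries, 1712 wild-type-only regions (77.7%) had under 50 reads and 69 (3.13%) had at least 100. Among regions of all 3 groups 31.8% had under 50 reads and 34.5% at least 100. As the plot of wild-type reads shows, the wild-type-only regions occupied the weak corner of the regions shared by the wild types, with a tail of regions that were strong in WT CD8 and weak in WT CD4.

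**Figure D1:**
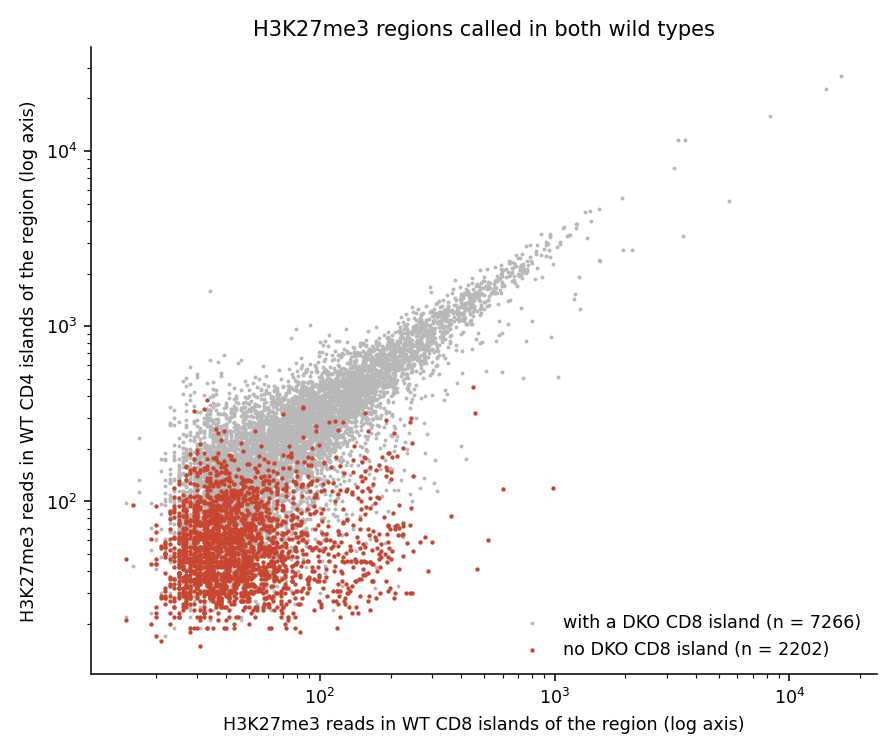
Each point is 1 H3K27me3 region with islands in both wild types, placed by its reads in WT CD8 (horizontal, log axis) and in WT CD4 islands (vertical, log axis). The 2202 regions without a DKO CD8 island (red) lie mostly at low reads in both libraries, with medians of 42 and 55, and the 7266 with one (grey) reach far higher.

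Of the 9468 regions with islands in both wild types, 23.3% lacked a DKO CD8 island, which is the share that the choice of regions fixes. That share fell with wild-type strength. It was 57.5% (95% interval 51.0 to 63.8) at 15 to 24 reads in the lower wild type, 41.6% at 25 to 49 and 19.0% (17.3 to 20.9) at 50 to 74. It was 7.03% at 75 to 99 reads, 3.98% from 100 to under 150 and 1.66% (1.07 to 2.46) at 150 and over, where 24 of 1445 regions had no DKO CD8 island. Width showed the same order, from 61.0% of regions under 2 kb (166 of 272) to 5.56% of those of 8 kb and over (238 of 4281). A missing DKO CD8 call was thus rare among strong or wide wild-type regions.

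A missing call was not peculiar to the deficient cells. Of the 12557 regions called in DKO CD8 and WT CD4, 42.1% had no WT CD8 island (5291 regions), and of the 8594 called in both CD8 groups, 15.5% had no WT CD4 island (1328 regions). With at least 100 reads in the lower of the other 2 libraries the shares were 12.2% for WT CD8 (11.3 to 13.0), 2.68% for DKO CD8 (2.09 to 3.38) and 1.64% for WT CD4 (1.18 to 2.22). By these shares DKO CD8 lay between the wild types, nearer to WT CD4, whose interval overlaps its own. The cut is on unscaled reads of a different pair of libraries for each group, so it is not the same strength in each. It kept 5849 regions for WT CD8, 2576 for DKO CD8 and 2499 for WT CD4, and the part of this in the order of groups was not tested. The shares of missing calls come from the same 3 libraries and depend on how much was called in each. With the lists trimmed to an equal covered length of 96.1 Mb, 891 wild-type-only regions were left, and with islands above the median reads of their list 575, of which 392 had no deposited DKO CD8 island at all.

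**Figure D2:**
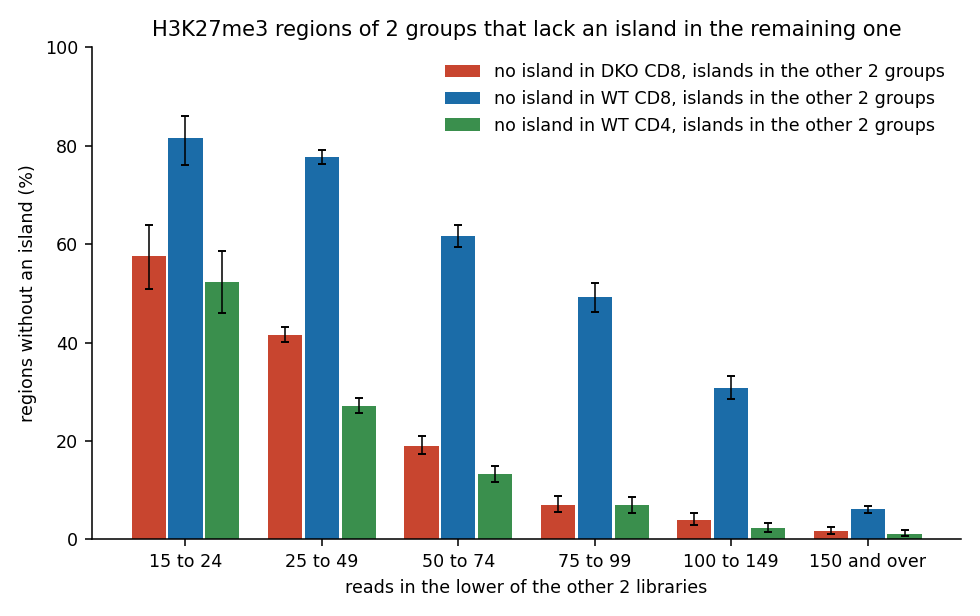
Bars give the percentage of H3K27me3 regions called in 2 groups that have no island in the remaining group, by the reads in the lower of those 2 libraries; error bars are exact 95% binomial intervals for counting error. For DKO CD8 the share falls from 57.5% at 15 to 24 reads to 1.66% at 150 and over, and WT CD8 is missing most often in each class. Reads are unscaled and come from a different pair of libraries for each group, so a class is not of equal strength between groups.

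The depth of the DKO CD8 list sets what a missing island can mean. DKO CD8 islands of 2 to 4 kb had at least 26 reads, and 95% of them had 34 or more. For the 795 wild-type-only regions of that width the median was 37 reads in WT CD8 and 45 in WT CD4. At 8 kb and over, DKO CD8 islands had at least 102 reads, and the 238 wild-type-only regions of that width had medians of 121 and 123. The widths compared are those of single islands for DKO CD8 and of whole regions for the wild-type-only set. A shorter DKO CD8 island within a wide region would also have excluded it, and DKO CD8 islands under 2 kb had as few as 15 reads. The minima above are therefore not floors for whole regions. The lists do not show what a library holds between its islands, so a region without an island may still hold uncalled reads. The DKO CD8 list has more reads than the WT CD8 list on less sequence, and the part of depth and island calling in the missing calls was not tested.

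Regions of all 3 groups with like wild-type strength give a scale for DKO CD8 reads where an island was called. With 33 to 61 WT CD8 reads and 38 to 82 WT CD4 reads, the middle ranges of the wild-type-only set, there were 449 regions of all 3 groups and 568 wild-type-only regions, with median widths of 4200 and 4000 bp. The 449 had a median of 55 DKO CD8 reads, with quartiles of 41 and 76. Since these ranges are the quartiles of the wild-type-only set, the numbers 449 and 568 follow from the choice of ranges and are not a share of missing calls; only the DKO CD8 reads of the 449 are of use as a scale.

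The regions on either side of the rule were close in value. The 3 regions of all 3 groups with the fewest DKO CD8 reads had 19 each, on chromosome 17 at 48340001 to 48347200, chromosome 4 at 119842401 to 119846200 and chromosome 1 at 94490601 to 94493000. Their WT CD8 reads were 77, 33 and 28 and their WT CD4 reads 40, 44 and 36. Just inside the rule, 26 wild-type-only regions touched a DKO CD8 island without overlap. The strongest of these, chromosome 4 at 155297801 to 155306800, had 156 WT CD8 and 150 WT CD4 reads.

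Many wild-type-only regions lay near a DKO CD8 H3K27me3 island. The nearest DKO CD8 island was at a median of 14700 bp, with quartiles of 4200 and 50800 bp. It was within 1000 bp for 178 regions (8.08%), within 5000 bp for 633 (28.7%) and within 20000 bp for 1253 (56.9%). Regions of WT CD4 alone were placed much the same, with 26.6% within 5000 bp and a median of 15000 bp, whereas those of WT CD8 alone were farther off, with 8.13% and a median of 71600 bp. Of the DKO CD8 islands 69.6% overlapped an island of a wild type. Such a shared island was within 5000 bp of 490 wild-type-only regions (22.3%), and an island that overlapped neither wild type was within 5000 bp of 179 (8.13%). The wild-type-only set thus included regions close to H3K27me3 that DKO CD8 shared with a wild type as well as isolated regions, up to 1516400 bp from a DKO CD8 island.

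**Figure D3:**
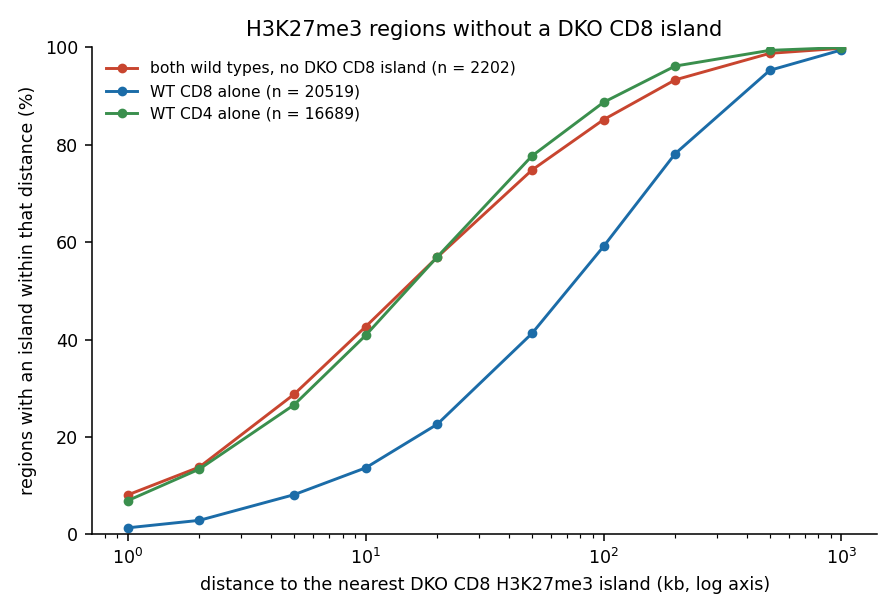
Curves give the percentage of regions (vertical) with a DKO CD8 H3K27me3 island within the distance on the horizontal log axis in kb, for regions of both wild types, of WT CD8 alone and of WT CD4 alone. The curve of the 2202 regions follows that of WT CD4 alone (28.7% and 26.6% within 5 kb) and lies above that of WT CD8 alone (8.13%).

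Inside the regions, the wild types often agreed on place but not on extent. A single island of each wild type made up 2089 regions (94.9%), and in 1897 (86.1%) the overlap covered at least 50% of the smaller island. The median overlap was 100% of the smaller wild-type span, yet the shared sequence was only 40.9% of the sequence that either wild type covered, as a median. The island of either wild type commonly lay within a longer island of the other.

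The strongest wild-type-only region, ranked by the lower wild-type library, was chromosome 4 at 146566201 to 146586600 (20.4 kb), with 447 reads in WT CD8 and 451 in WT CD4. DKO CD8 had islands on both sides of it, with 275 reads 0.6 kb away and 291 reads on the other side. WT CD4 had islands at those flanks too, with 262 and 283 reads. DKO CD8 and WT CD4 were thus alike at the flanks and differed in the middle, where WT CD4 had its 451 reads and DKO CD8 no island. A second strong region on the same chromosome, 146379201 to 146389600, had 206 WT CD8 and 247 WT CD4 reads, with the wild-type islands overlapping over 10.2 of 10.4 kb and a DKO CD8 island 3.6 kb away.

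The next in strength was chromosome 1 at 85149601 to 85174200 (24.6 kb), with 458 WT CD8 and 320 WT CD4 reads, 43.4 kb from a DKO CD8 island. Here the wild types shared only 3.8 kb, since the WT CD8 island filled the centre and the WT CD4 islands lay toward the ends. Chromosome 16 at 90339201 to 90356800 had 245 and 301 reads with an overlap of 10.2 kb, and a DKO CD8 island lay 2.2 kb away. Chromosome 11 at 114874601 to 114892200 had 242 and 284 reads and an overlap of 11.8 kb. Chromosome 12 at 4805401 to 4819000 had 247 and 217 reads and an overlap of 8.0 kb. On chromosomes 16, 11 and 12 the shared part was thus most of the shorter wild-type span, and the nearest DKO CD8 islands were 5.4 and 3.0 kb from the last 2.

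Others of the 10 strongest lay far from any DKO CD8 island. Chromosome X at 123552001 to 123561400 had 197 WT CD8 and 189 WT CD4 reads and was 125.2 kb from a DKO CD8 island. Chromosome 9 at 19760001 to 19772200 had 227 and 203 reads at 105 kb. Chromosome 2 at 20302001 to 20311000 had 195 and 188 reads at 43.4 kb. In each of these the WT CD4 island lay wholly within the WT CD8 island. Chromosome 17 at 36197601 to 36212000, with 192 and 290 reads and a DKO CD8 island 4.2 kb away, completes the 10.

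All 10 of these strongest regions also had a WT CD8 H3K4me3 island and a WT CD8 H3K27ac island, and none had a DKO CD8 H3K27ac island, as the map of islands shows for the first 6. At the chromosome 2 region H3K4me3 islands held 53 (WT CD8), 120 (DKO CD8) and 36 reads (WT CD4). At the strongest region on chromosome 4 they held 279 in WT CD8 and 46 in DKO CD8. Active marks of the wild-type CD8 libraries therefore went with the strongest wild-type-only regions, and the part of the WT CD8 libraries in this was not tested.

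**Figure D4:**
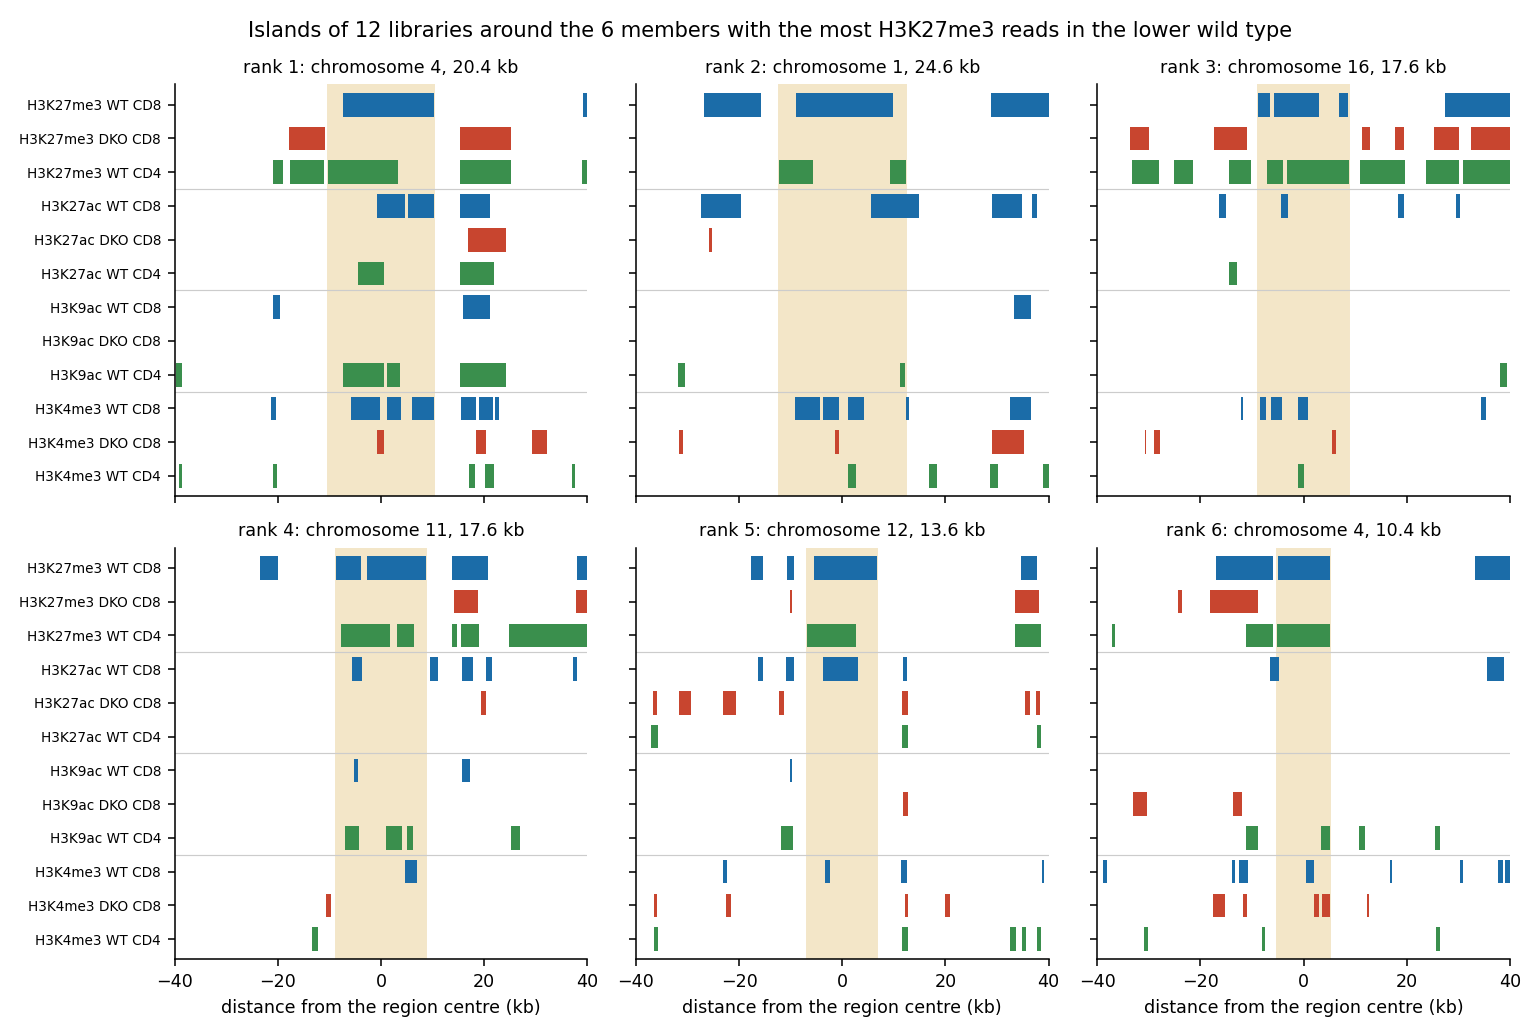
Bars are islands of the 12 histone libraries within 40 kb of the centre of the 6 strongest wild-type-only regions (shaded), with distance in kb on the horizontal axis and 1 row per mark and group; bar length is island extent, not reads. The DKO CD8 H3K27me3 row is empty inside the shading by the rule, and in 4 panels an island of that row starts within 5 kb of it.

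Reads of the wild types were compared after dividing by the median WT CD4 to WT CD8 ratio, which was 2.65 over all 9468 regions of both wild types. Wild-type-only regions had nearly even reads, with a median ratio of 1.25 before that division, against 2.98 for regions of all 3 groups. After it their median log2 ratio was -1.09. On that scale 1176 of 2202 (53.4%) were at least 2-fold lower in WT CD4 (19.0% of all regions of both wild types) and 19 (0.863%) at least 2-fold higher (7.09%). The absence of a DKO CD8 island chose the regions, so the shift is a description. Both wild-type lists start at 15 reads, and 77.7% of these regions had under 50 reads in the lower wild type. No comparison at equal strength was made, and the part of that floor in the shift was not tested.

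The shift was present at each width. The median log2 ratio of wild-type-only regions was -1.45 under 2 kb, -1.19 at 2 to 4 kb, -0.82 at 4 to 8 kb and -1.30 at 8 kb and over. Regions of all 3 groups had -0.99, -0.48, 0.03 and 0.32 at those widths. Scaled by total island reads instead, a factor of 1.57, 554 wild-type-only regions were at least 2-fold lower in WT CD4 and 156 higher. On both scales more wild-type-only regions were lower than higher in WT CD4, by different margins. Shares of all regions of both wild types were not computed on the scale of total reads, so the 554 and 156 describe this set only.

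The lowest ratios rested on small WT CD4 islands inside long WT CD8 ones. Chromosome 5 at 95140401 to 95163600 had 465 WT CD8 reads over 23.2 kb and 41 WT CD4 reads over 2.0 kb (log2 ratio -4.91, interval -5.41 to -4.45). Chromosome 7 at 20889801 to 20916400, the widest wild-type-only region at 26.6 kb, had 519 reads and 60 reads over 2.0 kb (-4.52), and chromosome 7 at 15398601 to 15411000 had 248 and 30 reads (-4.46). The highest ratios were the reverse case. Chromosome 6 at 89182401 to 89197400 had 378 WT CD4 reads over its whole width and 33 WT CD8 reads over 2.2 kb (2.11, interval 1.59 to 2.67), with a DKO CD8 island touching its end. Chromosome 7 at 56524801 to 56542400 had 329 and 29 reads (2.10), and chromosome 8 at 12671601 to 12689200 had 335 and 32 (1.98). Such regions are marked mainly in a single wild type, and their intervals do not cover reads outside islands.

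The libraries of the other marks played no part in the choice of regions. Of the 2202 wild-type-only regions 813 (36.9%) had no island of H3K4me3, H3K27ac or H3K9ac in any group (44.1% of all merged regions), and 1726 of 7266 regions of all 3 groups (23.8%) had none. A single other library had an island at 588, and 62 had islands of 5 or more of the 9 other libraries. Islands of all 9 were present at 2, and at 35 of the 7266 regions of all 3 groups. The counts of 588 and 62 have no share over all merged regions beside them, so they describe this set only.

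DKO CD8 H3K27ac was less frequent at wild-type-only regions than over all merged regions. A DKO CD8 H3K27ac island was present at 139 of 2202 (6.31%, 5.33 to 7.41; 8.91% of all merged regions). In WT CD4 it was present at 191 (8.67%, 7.53 to 9.93; 8.03%) and in WT CD8 at 784 (35.6%, 33.6 to 37.6; 33.2%). Among regions of all 3 groups DKO CD8 had it at 27.2%, WT CD4 at 24.9% and WT CD8 at 33.8%. DKO CD8 was thus below WT CD4 at wild-type-only regions and above it at regions of all 3 groups and over all merged regions.

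A DKO CD8 H3K27ac island with none in either wild type was found at 58 wild-type-only regions (2.63%, 2.01 to 3.39; 3.05% of all merged regions). The reverse, H3K27ac in both wild types and not in DKO CD8, was found at 73 (3.32%, 2.61 to 4.15; 1.20%). Another 31 had H3K27ac in DKO CD8 and WT CD4 (2.08% of all merged regions), 21 in both CD8 groups (1.16%) and 29 in all 3 groups (2.63%). The share with DKO CD8 acetylation alone was near its background. H3K27ac and H3K27me3 were missing together from DKO CD8 at 73 regions, against the 58 with DKO CD8 H3K27ac alone. Regions of all 3 groups kept the DKO CD8 H3K27me3 call. They had H3K27ac in both wild types without DKO CD8 at 4.35% and in DKO CD8 alone at 7.56%.

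**Figure D5:**
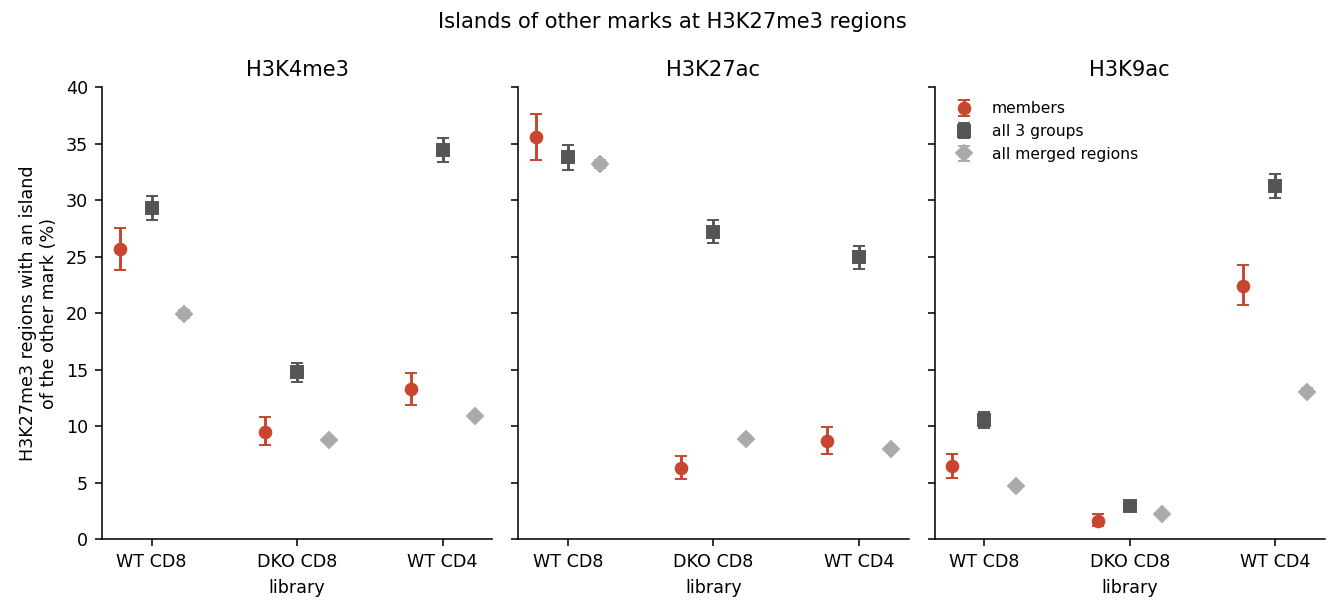
Points give the percentage of H3K27me3 regions (vertical) with an island of H3K4me3, H3K27ac or H3K9ac in each library (horizontal), for the 2202 wild-type-only regions (labelled members, red), the 7266 regions of all 3 groups (dark squares) and all 60577 merged regions (grey diamonds); bars are exact 95% binomial intervals for counting error. DKO CD8 H3K27ac is at 6.31% of wild-type-only regions, 27.2% of regions of all 3 groups and 8.91% of all.

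The share with DKO CD8 H3K27ac was below that of regions of all 3 groups and of all merged regions at each width. Under 2 kb it was 3.01% of wild-type-only regions, 22.6% of regions of all 3 groups and 5.22% of all merged regions. It was 5.41% of wild-type-only regions of 2 to 4 kb, against 19.0% of regions of all 3 groups of that width and 6.15% of all merged regions. At 4 to 8 kb the shares were 6.48%, 19.4% and 10.9%, and at 8 kb and over 10.9%, 33.5% and 28.0%. With under 50 reads in the lower wild type, 6.02% of wild-type-only regions and 19.4% of regions of all 3 groups had DKO CD8 H3K27ac. Wild-type-only regions were below both other sets in each width class, and below the regions of all 3 groups in this class of strength. Under 2 kb and at 2 to 4 kb their intervals (0.985 to 6.89 and 3.94 to 7.22) cover the shares of all merged regions. At those widths they cannot be told from the merged regions.

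The 3 wild-type-only regions with the most DKO CD8 H3K27ac reads among those without wild-type H3K27ac were all of moderate strength. Chromosome 17 at 29439601 to 29443600 had 106 DKO CD8 H3K27ac reads, beside 66 WT CD8 and 114 WT CD4 H3K27me3 reads. Chromosome 18 at 65462401 to 65467400 had 101, beside 37 and 71. Chromosome 17 at 25801801 to 25815400 had 62, beside 39 and 254. The median of DKO CD8 H3K27ac islands at wild-type-only regions was 29 reads and that of the whole list 34, so the first pair stood well above an ordinary island.

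H3K4me3 showed a like order of groups, which is also the order of size of its lists. Those lists hold 42013 (WT CD8), 28449 (WT CD4) and 23411 (DKO CD8) islands, so the number of calls and the group cannot be told apart. Islands were present at 565 wild-type-only regions in WT CD8 (25.7%, 23.8 to 27.5; 19.9% of all merged regions), at 292 in WT CD4 (13.3%, 11.9 to 14.7; 10.9%) and at 210 in DKO CD8 (9.54%, 8.34 to 10.8; 8.81%). H3K4me3 in DKO CD8 with none in either wild type occurred at 100 regions (4.54%; 3.82%), and in both wild types without DKO CD8 at 76 (3.45%, 2.73 to 4.30; 2.06%). Regions of all 3 groups had H3K4me3 in DKO CD8 alone at 4.03% and in both wild types without DKO CD8 at 9.06%. The strongest wild-type-only region with H3K4me3 in DKO CD8 alone was chromosome X at 3103601 to 3115600, with 66 DKO CD8 H3K4me3 reads. It was followed by chromosome 10 at 7351201 to 7358000 with 54 and chromosome 17 at 41851401 to 41856200 with 51. The order against all merged regions depended on width. At 4 to 8 kb, which holds the most wild-type-only regions, the shares were 22.2% in WT CD8 and 8.28% for DKO CD8, below the 29.8% (WT CD8) and 1490 of 12403 (DKO CD8) of all merged regions, and at 2 to 4 kb they were 19.6% and 7.30%, above the 15.5% and 6.64%. H3K4me3 islands here were of ordinary size, with median sums per region of 22 (WT CD8), 18 (DKO CD8) and 19 reads (WT CD4), against 16, 17 and 19 per island in the whole lists.

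Where another mark was present, it was mostly found in a single group, at wild-type-only regions as over all merged regions. WT CD8 alone had H3K4me3 at 398 regions (18.1%; 13.8% of all merged regions), H3K27ac at 661 (30.0%; 28.2%) and H3K9ac at 85 (3.86%; 2.79%). WT CD4 alone had H3K4me3 at 171 (7.77%; 6.11%), H3K27ac at 58 (2.63%; 2.13%) and H3K9ac at 427 (19.4%; 10.7%). H3K27ac of WT CD8 and H3K9ac of WT CD4 were thus the 2 most frequent single-library signals, and both lists are the longest of their mark.

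H3K4me3 and H3K27ac together, the pairing typical of active promoters, marked 371 wild-type-only regions in WT CD8 (16.8%; 13.4% of all merged regions), 49 in WT CD4 (2.23%; 3.84%) and 30 in DKO CD8 (1.36%; 2.54%). H3K27ac without H3K4me3, more typical of enhancers, marked 413 (18.8%; 19.9%), 142 (6.45%; 4.20%) and 109 (4.95%; 6.38%) in the same order of groups. H3K4me3 without H3K27ac marked 194 (8.81%; 6.57%), 243 of 2202 (7.07% of all merged regions) and 180 (8.17%; 6.27%). A bivalent promoter takes this form where H3K27me3 is also present. By the rule no wild-type-only region has a DKO CD8 H3K27me3 island, so the 180 DKO CD8 regions are not bivalent by these calls. Regions of all 3 groups had the promoter pairing at 14.6%, 14.9% and 7.34%. In DKO CD8 the wild-type-only regions were thus below the merged regions for both forms with H3K27ac. Regions of WT CD8 alone and WT CD4 alone were lower still. They had 0.541% and 0.809% for the promoter pairing and 1.73% and 4.59% for H3K27ac without H3K4me3.

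H3K4me3 in all 3 groups marked 26 wild-type-only regions (1.18%; 1.79% of all merged regions). Of these 26, H3K27ac islands were present in WT CD8 at 18 (69.2%), in WT CD4 at 15 (57.7%) and in DKO CD8 at 12 (46.2%). Among the 1084 merged regions with H3K4me3 in all 3 groups the shares were 76.8%, 79.1% and 79.9%. A Tcf1 peak lay in 3 of the 26 and in 22.2% of the 1084. With 26 regions these shares are imprecise. Within the regions, wild-type islands of other marks mostly overlapped the H3K27me3 island of the same cells, whose islands fill much of each region by construction. This held at 508 of 565 regions for WT CD8 H3K4me3 (89.9%) and 174 of 191 for WT CD4 H3K27ac (91.1%), against 74.2% and 94.1% at regions of all 3 groups. Whether the marks shared nucleosomes or cells cannot be told from island lists.

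H3K9ac was called at 494 wild-type-only regions in WT CD4 (22.4%, 20.7 to 24.2; 13.1% of all merged regions), at 142 in WT CD8 (6.45%; 4.73%) and at 36 in DKO CD8 (1.63%, 1.15 to 2.26; 2.23%). DKO CD8 alone had it at 21 (0.954%; 0.969%), both wild types without DKO CD8 at 53 (2.41%; 1.25%), DKO CD8 with WT CD4 at 11 (0.571% of all merged regions), all 3 groups at 3 (0.136%; 0.579%) and both CD8 groups at 1 (0.107% of all merged regions). The lists differ in size in the same order, with 32651 (WT CD4), 9860 (WT CD8) and 6516 (DKO CD8) H3K9ac islands, so the number of calls and the group cannot be told apart. The 3 regions with the most DKO CD8 H3K9ac reads and no wild-type H3K9ac were chromosome 4 at 145160401 to 145165600 (54 reads), chromosome 18 at 49848801 to 49856000 (48) and chromosome 9 at 36374401 to 36377000 (41). The first of these had H3K27ac in all 3 groups, with 97, 76 and 134 reads in WT CD8, DKO CD8 and WT CD4.

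Strength in the wild types went with more islands of the other marks, and also with width. Median widths of wild-type-only regions were 3800 bp under 50 reads in the lower wild type, 5800 bp at 50 to 99 and 9200 bp at 100 and over. Strength and width cannot be told apart here. Among the 69 wild-type-only regions with at least 100 reads in the lower wild type, 56 (81.2%, 69.9 to 89.6) had WT CD8 H3K27ac, 46 (66.7%) WT CD8 H3K4me3 and 32 (46.4%) WT CD4 H3K9ac. Regions of all 3 groups at that strength had 49.4%, 44.6% and 44.0%, and were wider, with a median of 15600 against 9200 bp. DKO CD8 H3K27ac stayed low, at 4 of the 69 (5.80%, 1.60 to 14.2), where 39.1% of the regions of all 3 groups had it. The other DKO CD8 marks did not share this. H3K4me3 was at 21 of the 69 (30.4%, 19.9 to 42.7), against 20.5%, and H3K9ac at 4.35%, against 4.11%. The WT CD8 shares of H3K27ac and H3K4me3 were thus above, and the DKO CD8 share of H3K27ac below, those of regions of all 3 groups.

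Leaving out the 784 regions with a WT CD8 H3K27ac island changed the levels. Among the other 1418, H3K27ac was present at 6.28% for DKO CD8 and the same 6.28% for WT CD4. H3K4me3 was at 13.7% for WT CD8, 6.49% for DKO CD8 and 11.9% for WT CD4, and H3K9ac at 15.4% for WT CD4. All merged regions without a WT CD8 H3K27ac island had WT CD8 H3K4me3 at 9.83%, DKO CD8 H3K4me3 at 5.55%, WT CD4 H3K4me3 at 4061 of 40448 and WT CD4 H3K9ac at 4469 of 40448, each lower than at wild-type-only regions. The lead of WT CD8 over WT CD4 in H3K4me3 narrowed from 25.7% and 13.3% to 13.7% and 11.9%, and the gap between DKO CD8 and WT CD4 in H3K27ac closed. DKO CD8 H3K27ac itself stayed at the same share as in the full set, and below the 7.67% of all merged regions chosen in the same way.

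The share of wild-type-only regions with a Tcf1 peak was near that of all merged regions. A peak of the splenic wild-type CD8 list overlapped 23 of 2202 (1.04%, 0.663 to 1.56; 1.26% of all merged regions), compared with 4.60% of regions of all 3 groups and 2.25% of those of DKO CD8 and WT CD4 only. At 8 kb and over the shares were 3.36% of wild-type-only regions and 6.23% of regions of all 3 groups, and at 4 to 8 kb 11 of 1003 and 66 of 2506. Over all widths, the other regions without a DKO CD8 island, which were narrower, had a peak at 0.219% (WT CD8 alone) and 0.383% (WT CD4 alone). Most regions with or without the DKO CD8 H3K27me3 call thus had no Tcf1 peak. The score of a peak, which the authors' list gives and which ranks peaks only within it, had a median of 77.0 at these 23 peaks and 76.4 over all 7807.

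These 23 peaks lay less often in H3K27ac islands than Tcf1 peaks in general. They were picked for overlapping wild-type H3K27me3 regions, while 3.34% and 5.73% of all peaks lie in WT CD8 and WT CD4 H3K27me3 islands. No comparison with peaks in other H3K27me3 regions was made, and the part of that choice in the difference was not tested. H3K27ac islands held 7 of the 23 in WT CD4 (30.4%), 6 in DKO CD8 (26.1%) and 3 in WT CD8 (13.0%), against 81.5%, 74.8% and 55.8% of all peaks, and 13 of the 23 lay in no H3K4me3, H3K27ac or H3K9ac island of any group. The highest score, 457.29, belonged to chromosome 9, 119847510 to 119848222, in a region with 96 WT CD8 and 55 WT CD4 H3K27me3 reads, 68 WT CD4 H3K27ac reads and a DKO CD8 island 1.0 kb away. The next, 420.1, overlapped its region by only 4 bp, at chromosome 9, 31078748 to 31079404. The peak with a score of 254.69, at chromosome 17, 7332504 to 7333180, lay in a region with 53 and 117 H3K27me3 reads and a WT CD8 H3K27ac island of 26 reads.

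A pair of regions on chromosome 8 combined a Tcf1 peak with strong active marks. At 20016401 to 20038800 (Tcf1 score 202.13), H3K27me3 had 980 reads in WT CD8, the most of any wild-type-only region, and 119 in WT CD4 over 2.4 kb. H3K4me3 there had 613 (WT CD8), 638 (DKO CD8) and 722 reads (WT CD4), and H3K27ac had 610 (DKO CD8) and 759 (WT CD4) with no WT CD8 island. At 19772201 to 19787200 (Tcf1 score 173.26) H3K27me3 had 601 and 118 reads, H3K4me3 had 403, 294 and 342, and H3K27ac had 362 in DKO CD8 and 610 in WT CD4, again with no WT CD8 island. Both regions thus had H3K27me3 mainly in WT CD8 and H3K27ac in DKO CD8 and WT CD4, at 474 and 229.8 kb from the nearest DKO CD8 H3K27me3 island.

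The wild-type-only regions were spread over the genome. On the autosomes the share of both-wild-type regions without a DKO CD8 island ran from 17.1% on chromosome 19 (52 of 304) to 28.3% on chromosome 12 (123 of 435). The only such region of chromosome Y also lacked one. On chromosome X the share was 38.8% (64 of 165, 31.3 to 46.7), above the interval of every autosome except chromosomes 12 (24.1 to 32.8) and 16 (22.2 to 33.5), which overlap it. At least 1 wild-type-only region lay in 1237 windows of 1 Mb, exactly 1 in 704 of them and 5 or more in 39. The fullest windows held 9, on chromosome 11 from 60000001, chromosome 15 from 77000001 and chromosome 5 from 147000001. In the first, 9 of 11 regions of both wild types lacked a DKO CD8 island while 16 other regions of the window had one, so neighbouring regions differed within it.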

How the data were processed

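Each of the 12 deposited histone lists holds intervals on a 200 bp grid in mm9, with the unscaled count of reads in each. Peaks of the Tcf1 list carry a score that the authors deposited. Tools in the submitters' processing notes, given there without roles, are MACS 1.4.2, SICER 1.1, Bowtie2 2.2.5 and FastQC. Some libraries were sequenced again for coverage, and which ones is not stated. Total reads per library are not known, so depth is reads within islands.

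Regions, classes, overlaps (1 bp or more), distances and read sums were computed with pandas 2.3.3 and numpy 2.4.6 under Python 3.11.15, intervals with SciPy 1.17.1 and plots with matplotlib 3.10.9. Reads of another mark at a region are those of all its overlapping islands, including parts outside. Overlap counts were tested on simulated data and bedtools 2.31.1 gave the same 60577 and 2202. The regions, lists and comparisons were chosen with earlier results of these data known. Named regions are the 10 with the most reads in the lower wild type, the 5 widest, the 5 with the highest Tcf1 score, the 3 with the most DKO CD8 reads per active mark absent from both wild types, the 3 highest and lowest wild-type ratios among regions where either library reached 100 reads, and those nearest the rule's edge; the text gives most of them. Planned gene lists were not run, for want of an mm9 annotation. The 3 inputs and the Tcf1-deficient library were not analysed on their own.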

Additional observations from a re-analysis of the deposited data

How the results depend on the processing

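Of 99 values recomputed under other settings, 58 stayed within the 95% interval of the value reported (for counts, within 1.5 times) and 41 moved. Asking for a 50% overlap of the wild-type islands and leaving out 7 regions of high signal in many libraries moved none of the counts, widths and shares. Keeping only islands above the median reads of their list left 575 regions (392 of them without any deposited DKO CD8 island), with a median width of 6400 bp. Their shares in WT CD8, DKO CD8 and WT CD4 were 35.7%, 17.0% and 19.1% for H3K4me3, 47.3%, 11.7% and 14.8% for H3K27ac, and 10.8%, 2.78% and 28.0% for H3K9ac, with 2.61% for a Tcf1 peak. Lists of equal covered length (96.1 Mb) left 891 regions of 3400 bp, with 36.6%, 13.0% and 15.3% for H3K4me3, 55.6% and 11.1% for H3K27ac in WT CD8 and WT CD4, and 8.64% and 31.0% for H3K9ac there. Without a DKO CD8 island within 5000 bp, WT CD8 H3K27ac was at 39.6%. Without one within 20000 bp, 949 regions of 3800 bp remained, with WT CD8 H3K4me3 at 32.9%, DKO CD8 H3K4me3 at 13.5%, WT CD8 H3K27ac at 47.7%, and H3K9ac at 2.42% (DKO CD8) and 27.3% (WT CD4). With the midpoint of the other island required inside, H3K27ac was at 4.95% in DKO CD8 and 6.90% in WT CD4. Leaving out regions with WT CD8 H3K27ac, a choice made after seeing the data, left 1418 regions, with H3K4me3 at 13.7% (WT CD8) and 6.49% (DKO CD8), H3K27ac at 6.28% (WT CD4), and H3K9ac at 4.16%, 0.846% and 15.4% in WT CD8, DKO CD8 and WT CD4. In the ratio of the wild types, a minimum of 50 reads after scaling left 648 regions lower in WT CD4, and scaling by total island reads gave 554 lower and 156 higher. The cause of these moves was not tested, apart from the smaller number of islands or regions that each stricter setting keeps. No paired analysis was possible because each group had 1 library per mark.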
